A study of Mus musculus and Rattus norvegicus with 30 samples.

Results

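Single-exon assembled LncRNAs of the mouse dorsal root ganglion (DRG) were the subject of the measurements below. They were chosen from the catalogue of LncRNAs that the study assembled from reads outside annotated genes, as the models with exactly 1 exon row, and 704 of the 4730 mouse models (14.9%) met that rule. The rule also leaves out 4 named models, LncRNA1779, LncRNA2754, LncRNA6176 and LncRNA6792, which have 2, 2, 12 and 37 exons, so this removed no model with 1 exon. The other 4026 models have several exons and are called multi-exon here. For its own later analysis the study retained only LncRNAs above a threshold of expression. That threshold was not applied here, so models that the study dropped for a low level are included. RNA was sequenced from L3 and L4 DRG of individual mice of the inbred strains BALB/c and B10.D2, collected 28 days after spared nerve injury (SNI) or sham surgery. SNI cuts the common peroneal and sural branches of the sciatic nerve and leaves the tibial branch, and in sham surgery the branches were exposed but left whole. There were 6 BALB/c sham libraries (3 male, 3 female), 4 BALB/c SNI libraries (2 male, 2 female), 5 B10.D2 sham libraries (3 male, 2 female) and 5 B10.D2 SNI libraries (2 male, 3 female). No animal carried a transgene or received a drug per the labels, and the labels give no age at collection. Each library was made from 1 animal, so p-values describe the spread between animals. Libraries are named by group and sample number.

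The DRG holds the cell bodies of sensory neurons together with satellite glia, Schwann cells and immune cells. Cutting a peripheral branch changes the transcription of many genes in those neurons. A long noncoding RNA (LncRNA) is a transcript of over 200 bases that encodes no protein, and many are spliced, capped and polyadenylated like mRNAs. A single-exon model in an assembly can stand for several kinds of RNA, among them an unspliced transcript, the last exon of a longer transcript, transcription running on past the end of a gene, or a copy of a repeated sequence. Splice sites leave a trace in the genome, since nearly all introns open with GT and close with AG on the transcribed strand.

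Most of these models touched a splice junction although they hold 1 exon. Of the 704 models, 594 (84.4%) had an end that lay exactly at a junction in the deposited list of splice junctions. The study removed introns given by junctions from its covered stretches, so such ends follow from how the models were made. The labelled span was wider than the model for 604 models, all 594 among them. Of the 100 models whose labelled span equalled the model, 0 had a junction at an end. There were 753 such junctions in all. Of these introns, 731 (97.1%) opened with GT and closed with AG, against 97.8% of the 247212 deposited junctions, which include them. The junctions at the models had a median length of 7543 bases, from 23 to 143764. For 339 models the junction lay at the 5′ end of the exon, which was then an acceptor, for 233 it lay at the 3′ end, a donor, and 22 had both. The far end of the junction fell in no annotated or assembled exon for 352 models, on the boundary of an annotated exon for 154, within an annotated exon for 75 and in another assembled LncRNA for 13. Of the models with a junction, 38.6% were thus joined to an annotated exon, 175 models to a protein-coding gene and 48 to an annotated LncRNA.

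Stretches around the ends of models that changed after injury (values follow below) are shown because they carry the splice site that the model itself does not. The first 5 are acceptor ends, each with 20 intron bases and then 60 bases of the exon, the capitals marking the AG that closes the intron, all on mm10 and the plus strand: chr6:107573553-107573632, chr1:7053970-7054049, chr10:34116586-34116665, chr14:68142324-68142403 and chr5:98302853-98302932.
LncRNA1251: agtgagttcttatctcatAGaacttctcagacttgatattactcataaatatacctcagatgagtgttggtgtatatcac
LncRNA2: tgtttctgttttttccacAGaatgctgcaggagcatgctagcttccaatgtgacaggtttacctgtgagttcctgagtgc
LncRNA1974: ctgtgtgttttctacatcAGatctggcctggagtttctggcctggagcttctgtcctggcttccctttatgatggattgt
LncRNA2662: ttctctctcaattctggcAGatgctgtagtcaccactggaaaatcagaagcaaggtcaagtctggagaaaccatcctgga
LncRNA1015: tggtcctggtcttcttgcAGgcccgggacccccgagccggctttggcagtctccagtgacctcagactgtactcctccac
The donor end of LncRNA3000, at chr16:90913127-90913206 on the plus strand, is given as the last 60 bases of the exon and 20 bases of the intron, the capitals marking the GT that opens it.
LncRNA3000: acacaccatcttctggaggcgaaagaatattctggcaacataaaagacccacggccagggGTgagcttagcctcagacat
The first 80 bases of 2 models with no junction at an end, at chr2:152112378-152112457 and chr4:150036309-150036388, both on the plus strand, carry no capitals.
LncRNA4036: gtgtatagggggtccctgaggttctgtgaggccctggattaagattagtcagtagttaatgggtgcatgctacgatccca
LncRNA4581: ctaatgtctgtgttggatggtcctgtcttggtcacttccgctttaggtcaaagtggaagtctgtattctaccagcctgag

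The polyadenylation hexamers AATAAA and ATTAAA, searched on the transcribed strand, are the signals near which most mRNA 3′ ends are cut. Either was found in the last 100 bases of 98 models (13.9%) and in the first 100 bases of 38 (5.40%). Models whose 5′ end was an acceptor held one at the 3′ end in 19.8% of cases, against 6.87% of models whose 3′ end was a donor. These shares are descriptions of the letters in those windows.

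Single-exon models were short. Their median length was 607.5 bases, from 201 to 20864, with the middle of the distribution between 330 and 1319 bases, while the exons of a multi-exon model summed to a median of 2923.5 bases. Of the 704, 154 were under 300 bases and 9 were over 10 kb. The longest was LncRNA7402 (20864 bases, chromosome 17, inside the body of Bicral, a chromatin remodelling subunit gene, on its strand). It was followed by LncRNA45 (14421 bases, chromosome 1, 21866 bases from Pax3, a neural crest transcription factor gene) and LncRNA7242 (13438 bases, chromosome 17). In GENCODE M21, LncRNA7242 shares exonic sequence with Sod2, the mitochondrial superoxide dismutase gene, while the study listed it as intergenic beside Sod2. The shortest, LncRNA3149, LncRNA3188 and LncRNA356, had 201 bases each, just above the minimum length of 200 bases that the study set. Median GC content was 46.5% in single-exon and 44.3% in multi-exon models, and the median share of repeat-masked bases was 16.3% and 26.7%.

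Most of the models lay between genes. With GENCODE M21 as the annotation, 402 models (57.1%) overlapped no gene, 141 (20.03%) lay antisense to an exon of a protein-coding gene, 120 lay in a gene body on the opposite strand, 17 in a gene body on the same strand, 15 shared exonic sequence with a gene on their strand, and 9 were antisense to another exon. Of the 402 intergenic models, 168 lay downstream of the nearest gene on its strand, 85 upstream on its strand, 79 upstream on the opposite strand and 70 downstream on the opposite strand. In all, 282 models started within 10 kb of the end of a gene on their strand. Since the study had extended gene models by 1000 bases before it searched for new transcripts, models can begin at that border, and 25 intergenic models lay at that distance from a gene or up to 10 bases farther, among them LncRNA4036, 1002 bases from Srxn1. A further assembled LncRNA lay within 10 kb on the same strand of 83 models.

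The mouse libraries held 29989963 to 41881331 counts, and the single-exon models took 0.121 to 0.213% of them. Levels are given as CPM, the count per 1000000 counts of the library after its total was scaled by the TMM factor, and 3 counts, taken as the floor for a count of 0, correspond to 0.0724 to 0.0973 CPM. The surgery labels were checked on Atf3, a transcription factor gene switched on in injured neurons, whose mean level was 13.5 CPM in BALB/c sham and 124 CPM in BALB/c SNI libraries (log2 fold change 3.24, SE 0.29), and 13.5 and 81.8 CPM in B10.D2 (2.69, SE 0.30). Sensory neuron genes were abundant in each library, with a summed level of at least 13862.5 CPM over the list. Some libraries stood apart in markers of other tissues: the 5 skeletal muscle genes summed to 1318 CPM in BALB/c sham 50 and 523 CPM in BALB/c SNI 49 against a median of 21.04, and the 8 Schwann cell and myelin genes to 4682 CPM in BALB/c sham 51 against a median of 2632. Their part in the results below was not tested, beyond fits that leave out each library. Bulk RNA cannot tell fewer cells of a type from less RNA per cell.

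Most of the models were expressed at a low level. The median over models was 0.333 CPM and 0.512 CPM per kb of exon, 573 models had a count in each library, 168 had a mean of at least 1 CPM and 70 a mean under 0.1 CPM. The filter on low counts left 496 models (70.5%) for testing, against 3267 multi-exon models (81.1%), and the 208 models that did not pass had a median length of 310.5 bases and a median level of 0.119 CPM. Levels in CPM followed length (Spearman's coefficient 0.72 over 704 models, which share libraries and counting), whereas levels per kb did not (coefficient 0.04). Per kb of exon, the median single-exon model was above the median multi-exon model in 20 of 20 libraries, by 0.44 on the log2 scale (SD 0.05), with medians of 0.518 and 0.380 CPM per kb. In counts the order was the opposite, with a mean log2 ratio of -1.47, since multi-exon models are longer. The 110 models with no junction at an end had a median of 0.836 CPM per kb and 0.872 CPM, against 0.440 CPM per kb and 0.232 CPM for the 352 models whose junction led to no known exon. The study kept islands without a junction only where their coverage per length passed a threshold, which bears on the level per kb of these models. The 604 models with a labelled span wider than the model, which hold all those with a junction, had a median of 0.485 CPM per kb. The median over multi-exon models was 0.393 CPM per kb. The part of the threshold in the orders above was not tested, and the orders are descriptions with no test.

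**Figure D1:**
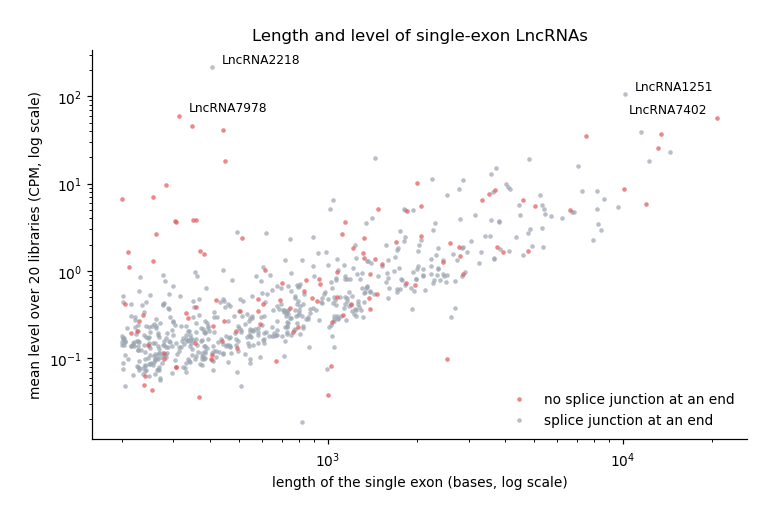
Mean level over the 20 libraries (CPM, log scale) against the length of the single exon (bases, log scale), 1 point per model, red for the 110 models without a junction at an end and grey for the 594 with one. Levels rise with length, and a few short models, LncRNA2218 at 215 CPM and LncRNA7978 at 59.99 CPM among them, stand far above others of their length.

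Several of the models with the highest level per length shared sequence with other models. The 6 models with the highest mean per kb were LncRNA2218 (532 CPM per kb), LncRNA7978 (191), LncRNA7992 (131), LncRNA7989 (92.6), LncRNA7984 (40.7) and LncRNA7980 (34.0), all under 450 bases long. LncRNA2218 and LncRNA7989 lie on opposite strands of the same stretch of chromosome 11, and LncRNA7984 and LncRNA7992 on opposite strands of 1 stretch of chromosome 3. Members were linked when they shared at least 50 words of 20 unmasked bases on either strand, and 3 families of this kind took in 9 models, beside 2 pairs of copies on chromosome 17: LncRNA2218 with LncRNA7989, LncRNA7981 with LncRNA7984 and LncRNA7992, and LncRNA7982 with LncRNA7987, LncRNA7990 and LncRNA7991. Their letters read, as background knowledge, as large-subunit ribosomal RNA, and no ribosomal RNA was among the reference sequences used, so an identity was not computed. The sequences are shown because they set these models apart from the rest. The capitals mark the longest run shared with 1 model elsewhere in the genome, 87 bases with the opposite strand of LncRNA7981 in LncRNA7984 (chr3:5860322-5860444, plus strand), 83 bases with LncRNA7990 in LncRNA7987 (chr8:15519775-15519877, plus strand) and 33 bases with LncRNA7980 in LncRNA7978 (chr16:92053022-92053094, plus strand), which reads as part of a B2 short interspersed repeat. LncRNA2218 is given by its first 100 bases (chr11:109011720-109011819, plus strand) without capitals.
LncRNA7984: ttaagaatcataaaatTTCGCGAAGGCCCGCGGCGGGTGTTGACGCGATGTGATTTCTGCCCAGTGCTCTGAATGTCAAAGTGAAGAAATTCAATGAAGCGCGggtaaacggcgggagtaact
LncRNA7987: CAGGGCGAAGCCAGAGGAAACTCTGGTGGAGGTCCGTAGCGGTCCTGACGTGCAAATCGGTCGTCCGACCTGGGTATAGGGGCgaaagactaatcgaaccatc
LncRNA7978: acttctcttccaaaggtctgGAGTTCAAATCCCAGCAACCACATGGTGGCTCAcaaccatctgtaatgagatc
LncRNA2218: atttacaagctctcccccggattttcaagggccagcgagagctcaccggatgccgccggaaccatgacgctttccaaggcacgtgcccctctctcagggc

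The 9 models split by strand in how they varied between libraries. LncRNA2218, whose letters are the reverse complement of the ribosomal strand, ran from 53.7 to 689 CPM with a median of 132, and its 3 highest libraries were B10.D2 SNI 90 (689 CPM), BALB/c sham 51 (643 CPM) and B10.D2 sham 60 (448 CPM). LncRNA7992 was highest in the same 3 libraries, at 204, 164 and 83.3 CPM against a median of 24.6. So was LncRNA7981, at 31.4, 24.0 and 13.9 CPM against a median of 4.48. These 3 libraries come from 3 groups, so the order does not follow strain or surgery. The 6 models on the ribosomal strand were instead highest in BALB/c sham 55, where LncRNA7989 reached 92.3 CPM (median 38.0), LncRNA7984 57.2 CPM (median 15.7) and LncRNA7990 13.4 CPM (median 3.07). Some of these libraries also led in annotated genes: CT010467.1 reached 1127 CPM in B10.D2 SNI 90 and 550 CPM in BALB/c sham 51, and Gm42418 reached 474 CPM in BALB/c sham 55 against at most 211 CPM elsewhere. One of the 9 was called in a comparison, LncRNA7987, at 2.34 to 3.30 CPM in B10.D2 sham and 3.79 to 10.9 CPM in BALB/c sham (log2 difference -0.97, SE 0.22, adjusted p 0.0029 by edgeR), and LncRNA7982 was too low to be tested. Beyond these families, 88 models had over 50% of their 31-base words elsewhere in the genome and 342 had none, so levels of the former may share reads with other copies.

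**Figure D2:**
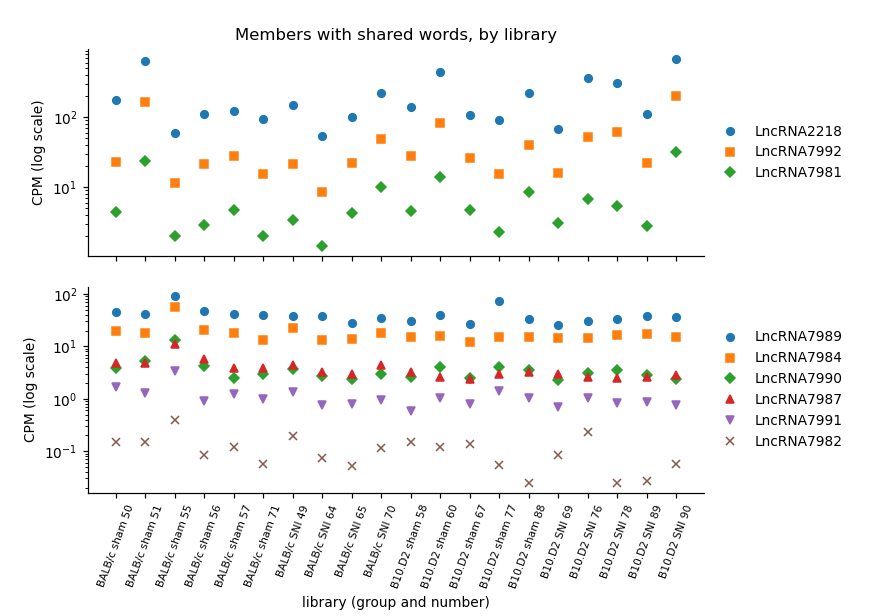
Level (CPM, log scale) of 9 models with shared 20-base words in each of the 20 libraries, in group order along the horizontal axis, 1 symbol per model. The 3 models of the upper panel peak in BALB/c sham 51, B10.D2 sham 60 and B10.D2 SNI 90, and the 6 of the lower panel in BALB/c sham 55.

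How far the levels differed between strains was asked in sham libraries. A model is called when its adjusted p from edgeR's quasi-likelihood test, adjusted over all 24685 tested features by Benjamini-Hochberg, is under 0.05. Of the 496 tested models, 131 (26.4%) were called between strains, 63 higher in B10.D2 and 68 lower, where 21.6% of all features were called, 11.5% higher and 10.03% lower, and multi-exon models stood at 26.1%. Among the 248 models with at least 10 counts in each library, the share called, given below, was not above the 20.99% of all features there. The median log2 difference was -0.01 both over the models and over all features. Among the called models the median size of the difference was 1.31 on the log2 scale, and 77 were 2-fold or more, 33 higher in B10.D2 and 44 lower. These sizes hold for models that passed the threshold. Over all 496 tested models the quartiles of the log2 difference were -0.28 and 0.33. The same strain comparison among SNI libraries, which shares no library with the first, called 114 models, 60 higher and 54 lower, where 20.8% of all features were called, 10.9% higher and 9.98% lower. Of the models called in sham, 94 were called in SNI too (71.8% of the first and 82.5% of the second list), all 94 in the same direction, and 126 of the 131 had the same sign. The same overlap over all features is not given here, so it is not shown to be particular to these models. The 94 include models near 0 in 1 strain, such as LncRNA1432, for which a repeated call and direction carry no weight. The study kept a model if it was present in all replicates of 1 condition or strain, so a model seen in 1 strain alone could enter the catalogue. Markers of other cells moved with strain as well: 4 of 10 macrophage genes and 4 of 7 lymphocyte genes were higher in B10.D2 sham, and 4 of 5 skeletal muscle genes were lower, and their part in the differences was not tested.

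Several models were near 0 in 1 strain, and 12 of the 131 called had 0 to 3 counts over the lower sham group. Such models passed the low-count filter through the strain where they are high, so the values of those near 0 in 1 strain are given as descriptions, with no test. LncRNA1432, on chromosome 7 in the body of Nup98, a nuclear pore gene, on the opposite strand, was at 1.05, 2.38, 1.30, 1.118 and 1.16 CPM in B10.D2 sham libraries. It had 1 count in the 6 BALB/c sham libraries together and none in the BALB/c SNI libraries, so the sham levels did not overlap, with a ratio of 303 (95% exact interval 53.9 to 12009.6, counting error only). LncRNA189, in the body of Cryzl2 on the opposite strand, was the other way round, at 1.23 to 1.61 CPM (median 1.49) in BALB/c sham against 3 counts in the 5 B10.D2 sham libraries, a ratio of 87.99 (29.8 to 429). The gene at the far end of its junction, Gm15486, differed the same way (log2 difference -7.36, adjusted p 2.4e-11), while Cryzl2 itself was higher in B10.D2 (1.86, adjusted p 2.0e-10). LncRNA1887, opposite to Nxpe4, had 0.864 to 1.34 CPM (median 1.20) in BALB/c sham and 2 counts in B10.D2 sham, a ratio of 107 (29.4 to 891). LncRNA1328, which was chosen after its values were seen, had no count in the 10 B10.D2 libraries and 0.389 to 0.999 CPM in the 10 BALB/c libraries, at least 8.12-fold higher against the floor of 3 counts per library. Of the 496 tested models, 7 had 0 to 3 counts over the 10 B10.D2 libraries together and 2 had so few over the 10 BALB/c libraries.

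LncRNA873 had a large difference between strains (fitted log2 difference -7.69) and a wide spread within BALB/c. It lies antisense to an exon of Sgip1, an endocytosis gene, and consists of repeat-masked sequence over its whole length, with 100% of its 31-base words elsewhere in the genome. BALB/c sham libraries ranged from 2.33 to 15.4 CPM (median 5.07), and BALB/c SNI libraries were at 9.02, 1.28, 0.207 and 4.17 CPM. B10.D2 sham libraries were between 0.0241 and 0.0543 CPM, so the sham groups did not overlap. LncRNA160, of which 70.3% of words occur elsewhere, was the reverse, at 2.75 to 3.78 CPM in B10.D2 sham and 0.139 to 0.298 CPM in BALB/c sham (fitted log2 difference 3.87, SE 0.20). Both are models whose reads can come from other copies.

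LncRNA3471 and LncRNA7041 were above the floor in all libraries of both sham groups. LncRNA3471 is 8630 bases long, has 27.3% of its words elsewhere in the genome, lies on chromosome 19 in the body of Zfp950, a zinc finger gene, on the opposite strand, and its junction leads into an exon of Grk5, a kinase of G protein-coupled receptors. B10.D2 sham libraries were at 9.47, 13.1, 13.4, 13.9 and 10.5 CPM, and BALB/c sham libraries between 1.103 and 2.24 CPM (median 1.44). The groups did not overlap, and the log2 difference was 3.02 (SE 0.14, adjusted p 4.8e-13), with Zfp950 at 0.60 (adjusted p 4.2e-06) and Grk5 at -0.05 (adjusted p 0.56). In GENCODE M21, LncRNA7041 shares exonic sequence with Kcnk9, a leak potassium channel gene, on its strand. The study listed LncRNA7041 as intergenic, with Kcnk9 as its nearest gene, and counted the 2 apart. By M21, reads counted for the model may belong to the gene. It was at 3.86, 4.37, 4.43, 4.36 and 3.38 CPM in B10.D2 sham and 0.677 to 1.17 CPM (median 0.929) in BALB/c sham, a log2 difference of 2.15 (SE 0.14, adjusted p 1.4e-10), and Kcnk9 differed by 1.77 (adjusted p 1.3e-08). LncRNA5440 (3.37), LncRNA1680 (3.14), LncRNA1172 (2.91) and LncRNA549 (2.15) complete the named models that were higher in B10.D2. Of these, LncRNA5440, LncRNA1680 and LncRNA1172 had few counts in BALB/c sham and passed the low-count filter through B10.D2, so their differences are descriptions.

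A model and the gene joined to it by a junction could differ in opposite directions. LncRNA2645, at 1.25 to 2.31 CPM (median 1.62) in BALB/c sham and 0.0877, 0.0603, 0.0272, 0.213 and 0.193 CPM in B10.D2 sham, was lower in B10.D2 by 3.82 on the log2 scale (fitted log2 difference -3.82, SE 0.31). Gm26782, in whose exon its junction ends, was higher there (3.10, adjusted p 1.7e-18). LncRNA2645 had 1 to 8 counts in each B10.D2 sham library and passed the low-count filter through BALB/c, so its values are descriptions with no test. The other named models lower in B10.D2 were LncRNA1010 (-1.40, antisense to the nuclear pore gene Nup54), LncRNA7324 (-1.31), LncRNA1277 (-1.26) and LncRNA3523 (-1.13). Of the models named for level or length, LncRNA7978 was at 42.5 to 62.2 CPM (median 51.4) in BALB/c sham and 54.3 to 104 CPM in B10.D2 sham libraries, overlapping (0.46, SE 0.11, adjusted p 0.0048). LncRNA45 was at 19.6 to 23.4 CPM and 21.8 to 26.4 CPM (0.20, SE 0.06, adjusted p 0.0098), while LncRNA7402 was at 53.8 to 60.2 CPM and 51.5 to 59.9 CPM (0.00, adjusted p 0.99). The calls of LncRNA3471 and LncRNA7041 remained when each of the 20 libraries was left out in turn.

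**Figure D3:**
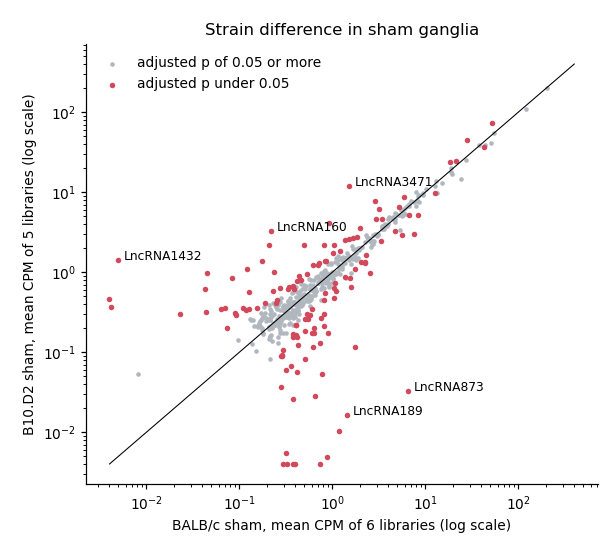
Mean CPM in the 5 B10.D2 sham libraries against mean CPM in the 6 BALB/c sham libraries (both log scales) for the 496 tested models, red where the adjusted p was under 0.05, with the line of equal levels. Means under the lower limit of the axes, 0 included, are drawn at that limit; LncRNA1432 and LncRNA160 lie far above the line and LncRNA873 and LncRNA189 far below it.

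Nerve injury in BALB/c mice changed few of the models, mostly downwards. Of 496 tested, 29 (5.85%) were called, 9 higher and 20 lower after SNI, where 9.69% of all features were called, 4.82% higher and 4.87% lower. Multi-exon models stood at 5.94% and protein-coding genes at 12.5%. The median log2 change was -0.04 over the models and 0.00 over all features, and 20 of the 29 changes were under 2-fold. Without BALB/c SNI 64, 16 models were called, where 6.56% of all features were, and 19 with BALB/c fitted alone, where 7.30% were. Calls went with level: of the 124 tested models with the highest mean CPM, 16 (12.9%) were called, against 4 of the 124 with the lowest, and multi-exon models in the same range of levels were called in 8.01% of cases. Of the 29, 21 lay between genes, 11 of them downstream of a gene on its strand (of 137 such models tested). The macrophage list rose in part in the same comparison, with 3 of 10 genes higher and the summed level at 166 to 256.02 CPM in SNI against 91.96 to 227 CPM in sham libraries, 2 of 8 satellite glia genes were higher, and 6 of 25 sensory neuron identity genes were lower. Their part in the changes was not tested.

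LncRNA4036 had the smallest p of the models that rose. It is 3674 bases long, has no junction, and lies 1002 bases past the end of Srxn1, the gene of sulfiredoxin, an antioxidant enzyme, on its strand. BALB/c sham libraries were between 6.97 and 8.52 CPM (median 7.50) and SNI libraries at 13.2, 10.3, 10.9 and 11.3 CPM, with no overlap, a log2 change of 0.59 (SE 0.08, adjusted p 2.7e-05 by edgeR). Srxn1 rose by 0.39 (adjusted p 0.00039). In B10.D2 the model was at 6.93 to 8.13 CPM in sham and 7.04 to 9.07 CPM in SNI libraries, which overlap (0.20, SE 0.08, adjusted p 0.16). LncRNA110 is joined by a junction to an exon of Sbspon, an extracellular matrix gene, and was at 4.63 to 10.2 CPM (median 7.93) in BALB/c sham and 10.7, 10.7, 11.2 and 12.02 CPM in SNI libraries. The groups did not overlap (0.51, SE 0.15, adjusted p 0.041), and Sbspon rose by 0.54 (adjusted p 0.029). LncRNA3598 (0.43), joined to Rbmx, an RNA-binding protein gene, and LncRNA1338 (0.39) were the other named models that rose. For LncRNA1338 the adjusted p was 0.049, and it passed 0.05 when any of 13 libraries was left out, up to 0.16 without BALB/c SNI 64. The calls of LncRNA110 and LncRNA3598 were lost without any of 10 and 6 libraries, up to 0.11 without BALB/c SNI 70 and 0.16 without BALB/c SNI 49.

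LncRNA2 had the largest fall among the named models. It lies on chromosome 1, 90.3% of it is repeat-masked, and 65.7% of its words occur elsewhere in the genome. BALB/c sham libraries ranged from 3.79 to 5.13 CPM (median 4.39), and SNI libraries were at 0.940, 1.83, 1.87 and 2.75 CPM, all below sham (log2 change -1.25, SE 0.21, adjusted p 0.00041 by edgeR). In B10.D2 the sham libraries were at 3.42 to 6.28 CPM and the SNI libraries at 2.65 to 3.68 CPM (-0.56, SE 0.19, adjusted p 0.11), overlapping. LncRNA4581, an intergenic model of 1860 bases on chromosome 4 without a junction, fell in both strains. In BALB/c it went from 5.94 to 7.89 CPM (median 6.34) in sham to 5.09, 3.74, 3.29 and 3.37 CPM in SNI (-0.78, SE 0.14, adjusted p 0.00080). In B10.D2 it went from 6.34, 6.48, 4.59, 4.63 and 3.55 CPM to 2.88, 2.88, 3.18, 3.26 and 3.16 CPM (-0.69, SE 0.14, adjusted p 0.0048). Neither strain's groups overlapped, and the nearest gene, the annotated LncRNA Gm13067, 10845 bases away, fell in BALB/c as well (-0.70, adjusted p 0.0072).

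LncRNA3000 and LncRNA1251, both past the end of a gene on its strand, fell from higher levels. LncRNA3000 starts 1013 bases past the end of Eva1c, a transmembrane protein gene, on its strand, and the donor shown above closes it. It was at 17.5 to 22.7 CPM (median 19.2) in BALB/c sham and 13.3, 11.99, 12.4 and 13.7 CPM in SNI libraries, without overlap (log2 change -0.59, SE 0.10, adjusted p 0.00041 by edgeR), while Eva1c changed by -0.21 (adjusted p 0.076). LncRNA1251, 10155 bases long, lies 3359 bases past the end of Lrrn1, a neuronal leucine-rich repeat membrane protein gene, on its strand. Sham libraries were at 102 to 135 CPM (median 127) and SNI libraries at 91.9, 86.2, 89.3 and 103 CPM, with 1 SNI library above the lowest sham library (-0.39, SE 0.08, adjusted p 0.0036). Lrrn1 fell by 0.27 (log2 change -0.27, adjusted p 0.013). In B10.D2 the changes of LncRNA3000 and LncRNA1251 were -0.32 (adjusted p 0.067) and -0.13 (adjusted p 0.48).

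LncRNA1974 is joined by its acceptor to the boundary of an exon of Trappc3l, named for its likeness to a vesicle transport subunit, and lies 6791 bases past that gene. In BALB/c it was at 0.845 to 1.20 CPM (median 1.11) in sham and 0.811, 0.627, 0.726 and 0.454 CPM in SNI libraries (log2 change -0.73, SE 0.20, adjusted p 0.020 by edgeR). In B10.D2 it was at 0.702, 0.874, 1.25, 0.825 and 1.16 CPM in sham and 0.530, 0.485, 0.727, 0.589 and 0.560 CPM in SNI libraries (-0.73, SE 0.19, adjusted p 0.031). The BALB/c groups did not overlap and the B10.D2 groups overlapped by 1 library. Trappc3l fell in both strains, with log2 changes of -0.52 (adjusted p 5.5e-06) and -0.36 (adjusted p 0.00051). Without BALB/c SNI 64 or 70 the BALB/c call of the model was lost, with an adjusted p of up to 0.087. The B10.D2 call was lost without any of 6 libraries, up to 0.13 without B10.D2 sham 67.

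LncRNA1015, whose junction leads to no known exon, fell in both strains too. It was at 1.18 to 1.63 CPM (median 1.32) in BALB/c sham and 0.811, 0.827, 0.855 and 1.11 CPM in SNI libraries (log2 change -0.60, SE 0.15, adjusted p 0.014 by edgeR), without overlap. In B10.D2 the libraries were at 0.819, 0.754, 1.01, 0.931 and 0.845 CPM in sham and 0.419, 0.562, 0.655, 0.589 and 0.616 CPM in SNI, again without overlap (-0.61, SE 0.16, adjusted p 0.030). Without BALB/c SNI 64 the adjusted p in BALB/c was 0.055, and the B10.D2 call was lost without any of 5 libraries, up to 0.097 without B10.D2 sham 67, and with no filter on low counts (0.096). LncRNA2434 (-0.85), LncRNA1811 (-0.72, opposite to Impg1, a retinal matrix gene), LncRNA2333 (-0.60), LncRNA4093 (-0.58), LncRNA132 (-0.41) and LncRNA5223 (-0.39) were the other named models that fell in BALB/c. LncRNA2333 is joined to an exon boundary of Dtnb, the beta-dystrobrevin gene, which fell by 0.20 (adjusted p 0.0044). LncRNA4093 lies 1374 bases upstream of Galnt13, an enzyme gene that starts O-glycosylation in neurons, on the opposite strand, and Galnt13 fell by 0.40 (adjusted p 0.00016). Of these 6, LncRNA4093 alone stayed called without any single library. LncRNA1811, LncRNA132 and LncRNA2434 lost the call without any of 6, 4 and 2 libraries, up to 0.12 without BALB/c SNI 49, 0.099 without BALB/c SNI 49 and 0.080 without BALB/c SNI 70. LncRNA2333 lost it without BALB/c SNI 49 (0.054) and LncRNA5223 without BALB/c SNI 65 (0.056).

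**Figure D4:**
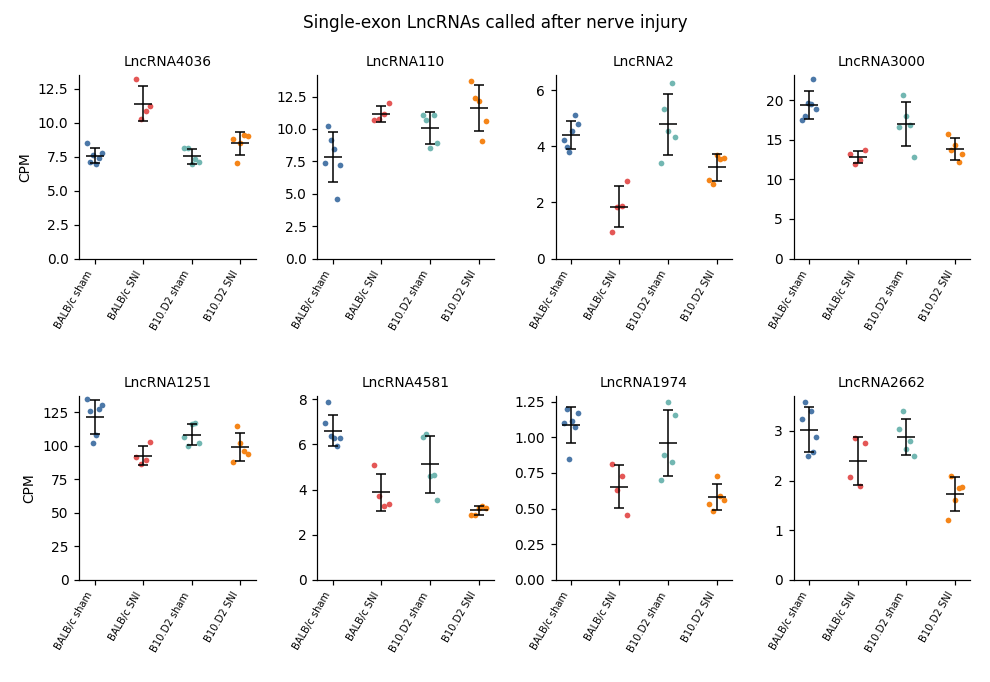
Level (CPM, axes from 0) of 8 models called after nerve injury, 1 panel per model and 1 point per library, with the mean and SD of each group as a bar and whiskers. LncRNA4036 and LncRNA110 are higher in BALB/c SNI than in BALB/c sham, and the others are lower in SNI in at least 1 strain.

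The remaining BALB/c calls included models of low level. LncRNA1579, chosen after its values were seen, lies in the body of Dlc1 on the opposite strand. It had 2 counts in the 6 BALB/c sham libraries and 25 in the 4 SNI libraries, a ratio of 18.96 (95% exact interval 4.73 to 165, counting error only). In B10.D2 it was at 0.0585, 0.0302, 0.0272, 0.0798 and 0.0724 CPM in sham and 0.614, 0.102, 0.630, 0.482 and 0.504 CPM in SNI libraries, all SNI libraries being higher, with 1 to 3 counts in each sham library (fitted log2 change 3.00, SE 0.53). It is counted among the calls of both strains, but it passed the low-count filter only through the SNI libraries, so these values are descriptions with no test. LncRNA355 (2.22), LncRNA2723 (2.13), LncRNA217 (1.65) and LncRNA6326 (1.14), also outside the naming rule and called higher, had sham means under 0.2 CPM. Each had at most 8 counts in any BALB/c sham library, so these changes are given as descriptions as well. Among models that fell outside the rule, LncRNA1483 went from 18.6 to 15.1 CPM and LncRNA3234 from 12.6 to 9.89 CPM on average. LncRNA7242, 1 of the 3 longest models, went from 34.9 to 39.9 CPM (median 37.5) in sham to 29.3 to 38.2 CPM in SNI (log2 change -0.19, SE 0.05, adjusted p 0.020), overlapping, and Sod2 changed by -0.12 (adjusted p 0.081).

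Injury in B10.D2 mice called 8 of the 496 models (1.61%), 3 higher and 5 lower, where 4.58% of all features were called, 2.10% higher and 2.48% lower. The count was 4 without B10.D2 SNI 69 or 90, 5 without B10.D2 sham 58, 67 or 77, and 4 with B10.D2 fitted alone. In the same order, the share of all features called was 2.96, 2.64, 3.05, 3.21, 3.45 and 3.83%. The median log2 change was 0.00 over the models and 0.01 over all features. In the same comparison 6 of 25 sensory neuron identity genes and 11 of 62 ion channel genes were lower, 1 ion channel gene and 1 of 8 satellite glia genes were higher, and their part in the changes was not tested. LncRNA2662 lies 17498 bases upstream of Nefm, the gene of the medium neurofilament, on the opposite strand. It was at 3.04, 3.41, 2.64, 2.79 and 2.49 CPM in sham and 1.20, 2.09, 1.60, 1.85 and 1.88 CPM in SNI libraries, without overlap (-0.70, SE 0.15, adjusted p 0.0085 by edgeR), and Nefm fell by 0.41 (adjusted p 0.040). In BALB/c the model changed by -0.33 (SE 0.15, adjusted p 0.19), with overlapping groups, and Nefm fell by 0.57 (adjusted p 0.0027). LncRNA4056, which begins 1007 bases past the end of the annotated LncRNA Ctcflos on its strand, rose, from 0.819, 0.935, 2.06, 1.97 and 1.54 CPM to 2.65, 4.34, 2.62, 1.87 and 1.99 CPM, with overlap (0.77, SE 0.20, adjusted p 0.031), and so did LncRNA1045, joined to an exon boundary of Aacs, a ketone body enzyme gene, from 0.612 to 1.14 CPM to 1.20 to 1.96 CPM without overlap (0.76, SE 0.21, adjusted p 0.037). LncRNA203, antisense to Nectin4, a cell adhesion gene, fell from 0.935 to 1.52 CPM to 0.502 to 0.963 CPM (-0.73, SE 0.21, adjusted p 0.046). The calls of LncRNA4056, LncRNA1045 and LncRNA203 were lost without any of 5, 7 and 13 libraries, up to 0.083 without B10.D2 SNI 76, 0.13 without B10.D2 SNI 90 and 0.14 without B10.D2 sham 67. Without the 3 libraries highest in LncRNA2218 together, 1 model was called, LncRNA1579, where 1.95% of all features were. The adjusted p of LncRNA4581 and LncRNA2662 by edgeR then became 0.050 and 0.061.

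Whether the injury changes differed between strains was tested as an interaction. By edgeR no model was called, where 0.0243% of all features were, nor by DESeq2, and 32 models had an unadjusted p under 0.05, so a call in 1 strain and not in the other is not shown to be a difference. LncRNA4581, LncRNA1974 and LncRNA1015 were called in both strains, in the same direction each time. LncRNA1579 was counted as called in both as well, but its values are descriptions with no test. With it, 33 models were called in at least 1 strain. The matching shares over all features are not given here. Sex was a term of the same fit. No model was called between males and females by edgeR, where 0.243% of all features were, and 38 had an unadjusted p under 0.05. DESeq2 called 2, where 1.19% of all features were.

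Changes of a model and of the gene beside it were set side by side. For 112 tested models downstream of a gene on its strand, Pearson's r between the 2 log2 changes after injury was 0.41 in BALB/c and 0.42 in B10.D2 (Spearman's coefficient 0.33 and 0.40). These points share the libraries of a comparison, and genes are not replicates. For the strain difference the 2 measures disagreed in sign (r -0.31, Spearman's coefficient 0.28). For 97 models antisense to a protein-coding gene the r after injury was 0.05 in BALB/c and 0.12 in B10.D2. For 166 models joined by a junction to an annotated gene it was 0.28 and 0.22 after injury and 0.48 between strains (Spearman's coefficients 0.12, 0.18 and 0.36). In BALB/c, 4 models downstream of a gene were called together with it, all 4 in the same direction, out of 8 called, and 3 of 6 called models with a joined gene were, again in the same direction. In B10.D2, 1 of 2 called models downstream of a gene and 1 of 2 with a joined gene were called with it. Between strains it was 10 of 25 and 18 of 41, with 6 and 13 of them in the same direction. Of all features, 9.69% were called in BALB/c, 4.58% in B10.D2 and 21.6% between strains. These joint calls were not tested.

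**Figure D5:**
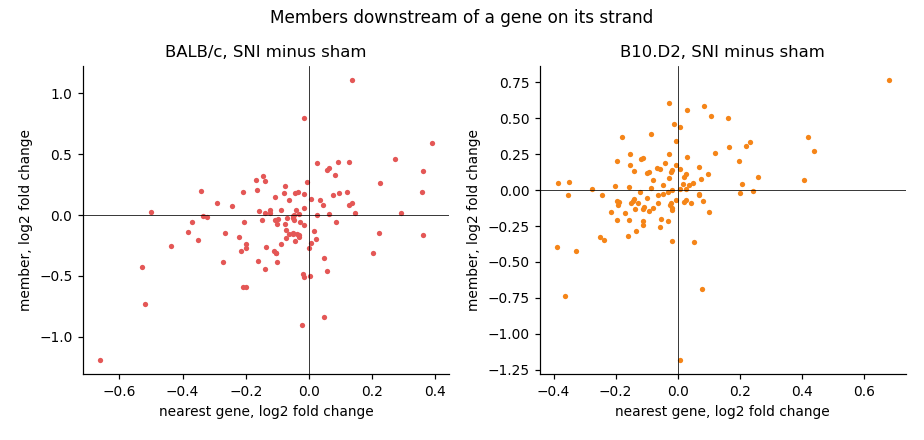
Log2 change after SNI of the models downstream of a gene on its strand (vertical) against that of the gene (horizontal), 112 pairs, BALB/c on the left and B10.D2 on the right. The cloud rises from lower left to upper right in both, with r of 0.41 and 0.42 and a wide spread of the models around the genes.

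Models at genes of sensory function were counted on fixed lists, which leave out other genes of the kind such as Kcnk9. For a list of 62 ion channel genes, 8 models were antisense, in the gene body or within 10 kb, and 3 of them passed the filter: LncRNA412 near Scn7a, LncRNA1262 in Cacna1c and LncRNA3496 in Trpm3, genes of sodium, calcium and cation channels. After injury in BALB/c, LncRNA412, LncRNA1262 and LncRNA3496 had log2 changes of -0.13, -0.44 and 0.02 (adjusted p 0.87, 0.22 and 0.97 by edgeR). Of 26 sensory neuron identity genes, 3 had a model, LncRNA1442 antisense to Calca, the gene of a pain-related neuropeptide, LncRNA2559 near Isl1, a sensory transcription factor gene, and LncRNA2905 near Prph, an intermediate filament gene, with BALB/c changes of -0.35, -0.34 and 0.08 (adjusted p 0.11, 0.34 and 0.92). Of 25 injury-induced neuronal genes, 1 had a model, LncRNA1072 in Cacna2d1, which was too low to be tested at 0.140 CPM. The injury-induced genes themselves rose in 22 of 24 tested in BALB/c mice and in 18 of 24 in B10.D2 mice.

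The summed level of the 704 models per library ranged from 1183 to 2133 CPM. It was 1294 ± 109 (SD, n = 4) in BALB/c SNI and 1485 ± 293 (n = 6) in BALB/c sham, a difference of -191 CPM (exact permutation test, two-sided, p = 0.14, adjusted p 0.43 over 3 comparisons). In B10.D2 it was 1589 ± 348 (n = 5) in SNI and 1495.1 ± 201 (n = 5) in sham (exact permutation p = 0.63, adjusted 0.94), and the sham groups of the strains differed by 10.04 CPM (exact permutation p = 0.97). The highest sums were those of B10.D2 SNI 90 and BALB/c sham 51, the libraries highest in LncRNA2218. Without the 9 models that read as ribosomal RNA, the sums were 1073 ± 21.4 in BALB/c SNI and 1144 ± 38.2 in sham (exact permutation p = 0.019, adjusted 0.057, n = 4 and 6).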

How the data were processed

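RNA was measured in 20 mouse DRG libraries. According to the methods, the authors depleted ribosomal RNA, kept strand with dUTP, sequenced read pairs, used STAR for alignment to mm10, assembled LncRNAs outside gene models extended by 1000 bases, and counted with HTSeq (intersection-nonempty). The deposited table holds raw counts of 54315 features, and the deposited models and splice junctions are on mm10. Both strains were aligned to 1 reference, and its effect on strain differences was not tested. Columns for B10.D2 sham 59 and for BALB/c SNI 66 were not in the table used, so both were not analysed here. Tables of the authors' fold changes and p-values for SNI against sham, and the rat files, were not used.

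Single-exon models were compared with GENCODE M21 genes and with the deposited junctions, and sequences were read from the RefSeq GRCm38.p6 genome. The counts rest on the study's own annotation, in which some overlaps with M21 genes are absent. 24685 features passed edgeR's filterByExpr. Counts were fitted with edgeR 4.0.16 in R 4.3.3 (TMM, quasi-likelihood test, terms for the 4 groups and sex), with Benjamini-Hochberg adjustment across the tested features and a threshold of 0.05. SE is the absolute log2 change over the square root of F. Floors are 3 counts and, like intervals, cover counting error only. Depth was 29989963 to 41881331 counts.

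The members and lists were chosen with earlier results of these data known. Models named had a mean of at least 1 CPM in the higher group: up to 12 called each way per injury comparison, the 8 largest strain differences each way, the 6 highest per kb, the 3 longest and 3 shortest, and called models near listed genes, of which there were none; models at listed genes are given besides. Alternatives were DESeq2 1.42.0, RLE size factors, no filter or at least 10 counts in each library, no sex term, each strain alone, and leaving out each library.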

Additional observations from a re-analysis of the deposited data

Results flagged for a closer look

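Of 70 groups of 4 to 6 libraries examined, 13 values stood far from the rest of their group by Dixon's criterion, which chance exceeds in about 1 group in 20. Most belong to the models that read as ribosomal RNA or to sums that hold them. In BALB/c sham 51 the summed level of the models was 2075 CPM (others 1318 to 1445), LncRNA2218 was at 643 CPM (others 59.8 to 176) and LncRNA7992 at 164 CPM (others 11.4 to 28.2). In B10.D2 sham 60 the summed level was 1850 CPM (others 1380 to 1456). In B10.D2 SNI 90 LncRNA7992 was at 204 CPM (others 15.8 to 60.7). On the other strand, LncRNA7989 and LncRNA7984 were at 92.3 and 57.2 CPM in BALB/c sham 55 (others at most 46.6 and 20.7). LncRNA7989 was at 73.2 CPM in B10.D2 sham 77 (others at most 40.3), and LncRNA7984 at 12.4 CPM in B10.D2 sham 67 (others at least 14.99).

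Among models called after injury, LncRNA1338 was at 15.7 CPM in BALB/c SNI 65, below the other SNI libraries at 21.1 to 21.7 CPM and near the sham median of 15.02. LncRNA1974 was at 0.845 CPM in BALB/c sham 55 (others 1.07 to 1.20), LncRNA1015 at 1.11 CPM in BALB/c SNI 70 (others 0.811 to 0.855), and LncRNA1045 at 1.96 CPM in B10.D2 SNI 90 (others 1.20 to 1.41).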

How the results depend on the processing

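Of the models named for an injury change, the call was lost under fits of each strain alone for 5 of 16 in BALB/c (LncRNA110, LncRNA3598, LncRNA2333, LncRNA132 and LncRNA5223) and 2 of 5 in B10.D2 (LncRNA4056 and LncRNA203), and without the 3 libraries named next for 4 in BALB/c (LncRNA3598, LncRNA1338, LncRNA1974 and LncRNA132) and all 5 in B10.D2, with the direction unchanged. Calls were also lost without a sex term for LncRNA4056 and LncRNA1045 in B10.D2, with no filter for LncRNA3598 and LncRNA132 in BALB/c and LncRNA203 and LncRNA1015 in B10.D2, and with RLE size factors for LncRNA1338 in BALB/c (adjusted p 0.052). The 16 named strain differences kept direction and call under the alternatives in which they were tested, 7 of them passing the filter of at least 10 counts. LncRNA1432, LncRNA189, LncRNA1887 and LncRNA873 were below the floor in each library of 1 sham group. They passed the low-count filter through the other strain, so their kept calls lend no weight and are descriptions. LncRNA160, LncRNA5440, LncRNA1680, LncRNA1172 and LncRNA2645 had under 10 counts in most sham libraries of their lower strain. Their kept calls are descriptions too. With the filter of at least 10 counts, 52 of 248 models were called between strains, 29 higher and 23 lower, where 20.99% of all features were. In BALB/c 4 rose, since fewer models were tested, where 11.7% of all features were called in either direction. With each strain fitted alone, 19 models were called in BALB/c (13 lower) and 4 in B10.D2 (2 lower). The share of all features called was 7.30% and 3.83%. Without a sex term 1 model rose in B10.D2, and DESeq2 called 10 lower there. In those 2 fits, 4.72% and 6.77% of all features were called in B10.D2 in either direction. Without BALB/c sham 51, B10.D2 sham 60 and B10.D2 SNI 90, an alternative chosen after seeing the data, 1 model was called in B10.D2, which rose, with 0 lower, and 1 for sex. Of all features, 1.95% and 0.260% were called there. For sex, no filter gave 5 and DESeq2 2, where 0.530% and 1.19% of all features were called. The cause of these shifts was not tested. Leaving out 1 library gave 114 to 139 calls between strains (56 to 70 higher, 56 to 69 lower), 16 to 30 in BALB/c (4 to 10 higher, 12 to 21 lower), 4 to 10 in B10.D2 (1 to 3 higher, 2 to 7 lower), 0 for the interaction and 0 to 1 for sex. The lowest counts came without BALB/c SNI 64 in BALB/c (16) and without B10.D2 SNI 69 or 90 in B10.D2 (4). Over all features the share called also varied, from 18.3 to 21.8% between strains, 6.56 to 10.7% in BALB/c and 2.64 to 4.84% in B10.D2. It was 6.56% without BALB/c SNI 64, and 2.96% and 2.64% without B10.D2 SNI 69 and 90.

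The summed level differed in BALB/c by -48.6 CPM without the 10 models of highest mean count, which passed the threshold (exact permutation, adjusted p 0.029), and by -72.7 to -232 CPM with 1 library left out. In B10.D2 it turned to -14.2 CPM without those 10 models and to -39.4 CPM without the 9 ribosomal ones, and ran from -42.2 CPM (without B10.D2 SNI 90) to 185 CPM with 1 library left out. Between strains it ran from -78.7 CPM (without B10.D2 sham 60) to 128 CPM. The log2 ratio of single-exon to multi-exon levels was -1.47 in counts, where length is not divided out. No paired analysis was possible because the groups share no replicate numbers. The median model had 12.1 counts per library on average, which limits what small changes can be seen.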
